A study of Homo sapiens with 14 samples.

Results

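The m6A levels of 4 ovarian carcinoma lines, CAOV3, COV644, EFO21 and SKOV3, were compared with those of A549 (lung carcinoma) and OE21 (oesophageal carcinoma). N6-methyladenosine (m6A) was read at single adenosines of polyadenylated RNA with GLORI, in which glyoxal and nitrite turn unmethylated adenosine into a base read as G while m6A is still read as A. A site's level is the share of A, in percent, among its reads with A or G. All 6 established lines had been kept in the solvent DMSO for 24 h, with 2 libraries per line and 12 in all. A further 2 libraries of CAOV3 with 1 uM of the compound STM3675, from a series on inhibition of the methyltransferase METTL3, serve below only to describe sites. Sites entered the comparison where all 12 DMSO libraries had at least 20 reads. This held for 68873 of the 407343 sites in the table, 38621 of them in DRACH, the 5-base motif that METTL3 prefers. The deposited sites carry a filter named as 20 reads and 25% m6A, and which libraries had to meet it is not stated. As 8 of the 12 DMSO libraries are ovarian, listing may favour sites that are high in ovarian lines. The KIRREL1, ICMT, SKA3 and GEMIN4 sites described below were under 25% in every A549 and OE21 library. Under such a filter they are listed through ovarian lines only. The PABIR1 and DDA1 sites were under 25% in every ovarian library, so they would be listed through A549 or OE21 only. A site was counted where the means of all 4 ovarian lines lay on the same side of the means of both other lines, called a separated site here, and 8580 sites met this. Each line is a single culture model of its tumour type, so the 4 against 2 lines carry the whole comparison, and ovarian origin cannot be told apart from any other trait that these lines share.

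m6A is the most common internal modification of messenger RNA. It is placed in the nucleus by a writer complex around METTL3 and METTL14, with WTAP, VIRMA, ZC3H13, CBLL1 (also named HAKAI) and RBM15 or RBM15B as partners, and it can be removed by ALKBH5 and FTO. It lies mostly in last exons and long internal exons, and YTH proteins that bind it shorten the life of many transcripts.

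The sites below are those described in most detail, and their 5-base contexts are shown because some fall outside DRACH. Sequences are those of the deposited table, 5′ to 3′, with the measured adenosine in capitals.
KIRREL1: ggAct
RMI2: ggAca
FBXL5: agAct
CBLL1: tgAct
LATS1, first site described: tgAct
LATS1, second site described: aaAca
SKA3: ggAtt
HOXB7: ggAta
The SKA3 and HOXB7 contexts are outside DRACH, and all others fit it. Sequence variants of the lines near these sites could not be looked at, so a line's own context may differ from the one shown. Whether such variants have a part in the differences at these sites was not tested.

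The DMSO libraries held between 14047302 and 25492907 reads with A or G at the listed sites. The labels were checked by read coverage of marker genes, in RPM (reads scaled to the library total over all listed sites). The 8 listed ovarian markers summed to between 545 and 1365 in the ovarian lines, against 14.9 in A549 and 53.4 in OE21. In COV644, which had the 1365, MSLN alone made up 1193. WT1 went the other way, at 1.54 or less in every ovarian line and 8.04 in A549, and MUC16 was not listed. Single markers did not all follow, since PAX8 was at 18.7 in COV644 and 20.5 in OE21, and MECOM at 0.478 in CAOV3 and 28.0 in OE21. The 7 squamous markers summed to 7475 in OE21 and to 676 in COV644, where TRIM29 made up 646. A549 lacked its lung markers here, since the 2 that were listed summed to 0.144, less than in any other line and than the 137 of EFO21. EFO21 stood apart with 857 for the endothelial genes PECAM1 and CDH5, which summed to 10.6 or less in each other line. Fibroblast markers summed to 11.5 to 129 and leukocyte markers to 14.1 to 114 over the 6 lines. Tested adenosines outside DRACH had a median level of 4.27% in COV644 and in OE21, but of 10.5% to 12.7% in the other 4 lines. They too are listed sites, so this median may differ from the unconverted share. This background thus differed within both classes, and its part in single differences was not tested beyond the corrected values given below.

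Averaged over all DRACH sites, the ovarian lines were a little higher, but the classes overlapped. The mean level was 48.4% in CAOV3, 44.7% in COV644, 44.1% in EFO21 and 43.2% in SKOV3, against 43.6% in A549 and 40.3% in OE21. A549 thus lay above SKOV3. The ovarian mean was 45.1% ± 2.26 (SD, n = 4 lines) and the other mean 41.9% ± 2.33 (SD, n = 2 lines), a difference of 3.18 points with an exact permutation p of 0.267, two-sided. This design cannot give a p below 0.133. Between the pair of low background, COV644 was 4.41 points above OE21, and the other 3 ovarian lines averaged 1.67 points above A549. After a correction for unconverted adenosine the difference was 1.61 points with an exact p of 0.80.

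**Figure D1:**
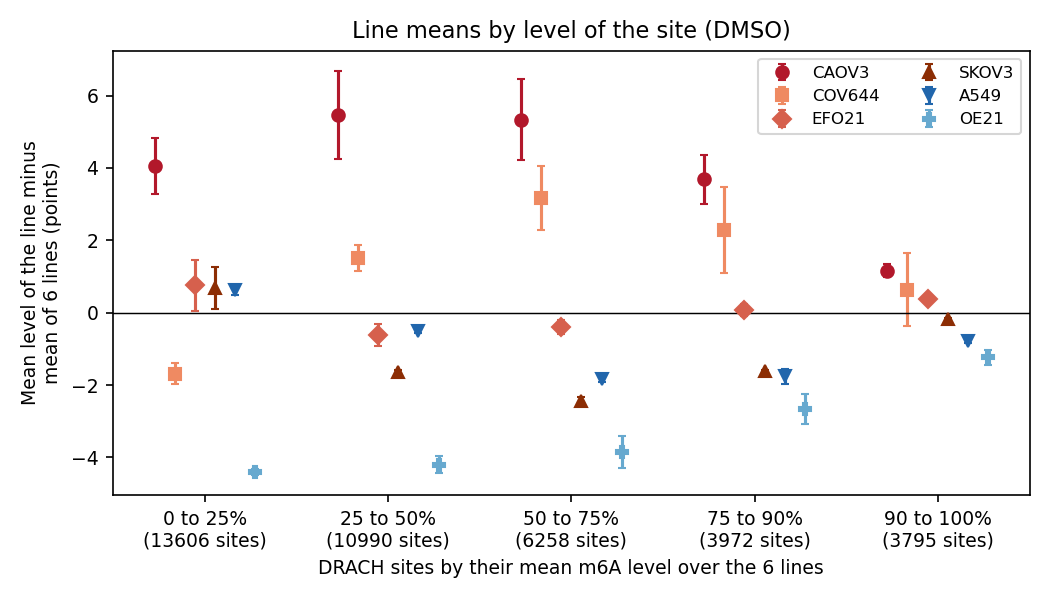
Mean m6A level of each line over DRACH sites, grouped by the site's mean level over the 6 lines (x axis, with the number of sites), shown as the distance in percentage points from the mean of the 6 lines (y axis). Bars are the SD of 2 libraries; only at 75 to 90% and 90 to 100% do all 4 ovarian lines lie above both A549 and OE21.

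The classes were apart at highly methylated sites and overlapped at weakly methylated ones. Over the 3972 DRACH sites with a mean of 75 to 90%, the ovarian lines lay between 81.1% (SKOV3) and 86.4% (CAOV3), above A549 at 81.0% and OE21 at 80.1%. Over the 3795 sites with a mean of 90 to 100%, the ovarian lines lay between 94.9% and 96.2%, above 94.3% in A549 and 93.8% in OE21. Both comparisons reached the smallest exact p of 0.133. The margin between SKOV3 and A549 at 75 to 90% was within the spread of their 2 libraries. In the classes below 75% the lines overlapped, with exact p between 0.267 and 0.40. Sites in internal exons separated the lines as well, with 39.1% ± 1.60 in ovarian lines against 35.5% ± 2.08 (SD, exact p = 0.133), whereas the last exons did not, with 46.8% ± 2.58 against 43.6% ± 2.33 (SD, exact p = 0.267).

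Of all tested sites, 7796 were separated with the ovarian lines higher (11.3% of those tested) and 784 with them lower (1.14%). Among DRACH sites the counts were 6117 (15.8%) and 630 (1.63%). With every one of the 8 ovarian libraries on the same side of all 4 others, 1004 DRACH sites were higher (2.6%) and 66 lower (0.171%). These shares describe the rule and are no test. The split rests on the scale: higher sites made up 90.7% of the separated DRACH sites as measured, 76.6% after the correction for unconverted adenosine and 47.4% after the line levels were quantile-normalised, which gives every line the same distribution. Of the 6117 higher sites, 2387 (39.0%) were also separated after quantile normalisation, and of the 630 lower sites 602 (95.6%). Line pairs differed widely, as CAOV3 was above OE21 at 85.3% of DRACH sites but SKOV3 above A549 at 48.4%. Accordingly, at the higher sites SKOV3 was the ovarian line nearest to the others at 38.8%, and A549 was the nearer of the other lines at 65.5%.

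**Figure D2:**
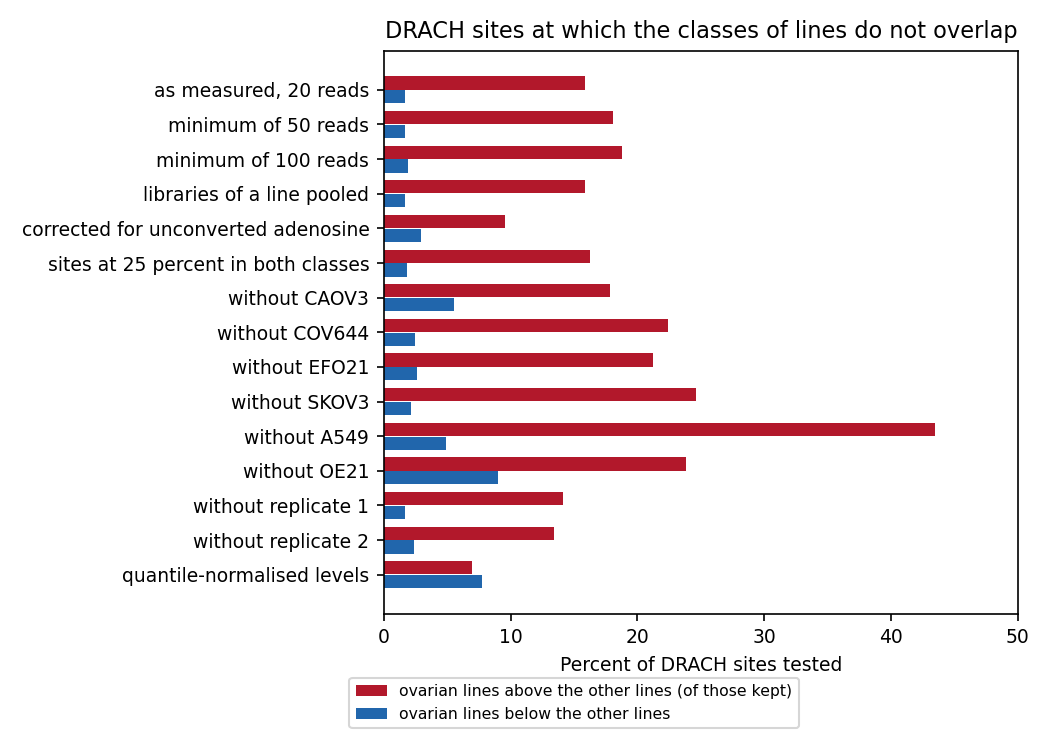
Percentage of tested DRACH sites at which the ovarian lines lie above (red) or below (blue) the other lines, as measured and under the alternatives that change levels, sites or libraries. The red share is 15.8% as measured and 43.5% without A549, and blue exceeds red only with quantile-normalised levels (7.70% against 6.95%). Leaving out a line makes the rule easier to meet, so those shares are not on the same footing as the share as measured.

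The libraries allowed a check of library error in the same lines. Of 5168 DRACH sites separated as higher in the first libraries, 1544 (29.9%) were also higher in the second libraries, where 14.1% of all tested DRACH sites were. Of 909 separated as lower, 105 (11.6%) were so again, against 1.65% of all. The median difference of these sites shrank from 9.43 to 5.84 points for higher ones and from -8.33 to -1.49 points for lower ones. Just inside the rule lay PDIA6, where SKOV3 and A549 differed by 0.0018 points, and just outside lay TNFAIP1, where EFO21 minus OE21 was -0.00085 points.

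Tested over all 68873 sites with limma, using the line as the unit, 45 sites were higher in the ovarian lines (0.0653%) and 2 were lower (0.0029%) at a Benjamini-Hochberg adjusted p under 0.05. At an unadjusted p under 0.05 there were 3282 and 247. Of the 47 called sites 41 were DRACH, 44 were separated by line and 30 by library. In 38 of the 45 higher sites the ovarian mean was 75% or more, the range in which limma's fitted trend takes the spread between lines to be small. Without that trend 1 higher and 1 lower site were called. The calls fell to 2 and 0 among sites with 50 reads, and rose to 108 and 14 without A549 and to 93 and 27 without COV644. FBXL5 held 4 of the called sites, and LATS1 and PCGF3, both named after their values were seen, held 2 each.

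Among DRACH sites with 50 reads and with every library separated, the largest difference was in KIRREL1, which encodes a nephrin-like cell adhesion protein. The site lies in last exon 15, at position 158096252 of chromosome 1 (GRCh38, plus strand). Its 2 libraries gave 63.8% and 66.7% in CAOV3, 37.6% and 43.0% in EFO21, 24.6% and 24.5% in SKOV3 and 10.2% and 19.4% in COV644, against 0% and 1.01% in A549 and 2.88% and 0% in OE21. The ovarian lines thus differed widely among themselves, while A was nearly absent from the reads of both others. The line means of 0.505% in A549 and 1.44% in OE21 lay below the background of these lines (10.5% and 4.27%). The reason for this was not tested. The means were 36.2% ± 22.0 (SD, n = 4) and 0.974% ± 0.663 (SD, n = 2), a difference of 35.2 points (SE 7.10, limma adjusted p = 0.025). That call held in 3 of 14 alternative analyses, those of the 19 in all that were rerun for the named sites, whose adjusted p ran from 2.23e-09 to 0.974. At the other 6 tested sites of KIRREL1, differences ran from -1.78 to 11.1 points, and with STM3675 the site was at 6.97% in CAOV3.

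RMI2, a subunit of the complex that dissolves recombination intermediates with the BLM helicase, had the largest difference relative to its error among these DRACH sites. At position 11350868 of chromosome 16, in last exon 2, the 8 ovarian libraries lay between 94.6% and 100%. The A549 libraries were at 69.2% and 65.9% and the OE21 libraries at 73.2% and 70.4%. The means were 98.0% ± 1.14 and 69.7% ± 3.03 (SD), a difference of 28.3 points (SE 2.60, limma adjusted p = 5.27e-10), and the call was lost in 1 of these 14 alternatives, without the trend (adjusted p = 0.49). The remaining 5 tested sites of the same exon differed by -0.10 to 3.76 points. The site kept 49.7% ± 0.436 (SD, n = 2) with STM3675 in CAOV3, where the median of higher DRACH sites fell from 53.4% to 9.18%.

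**Figure D3:**
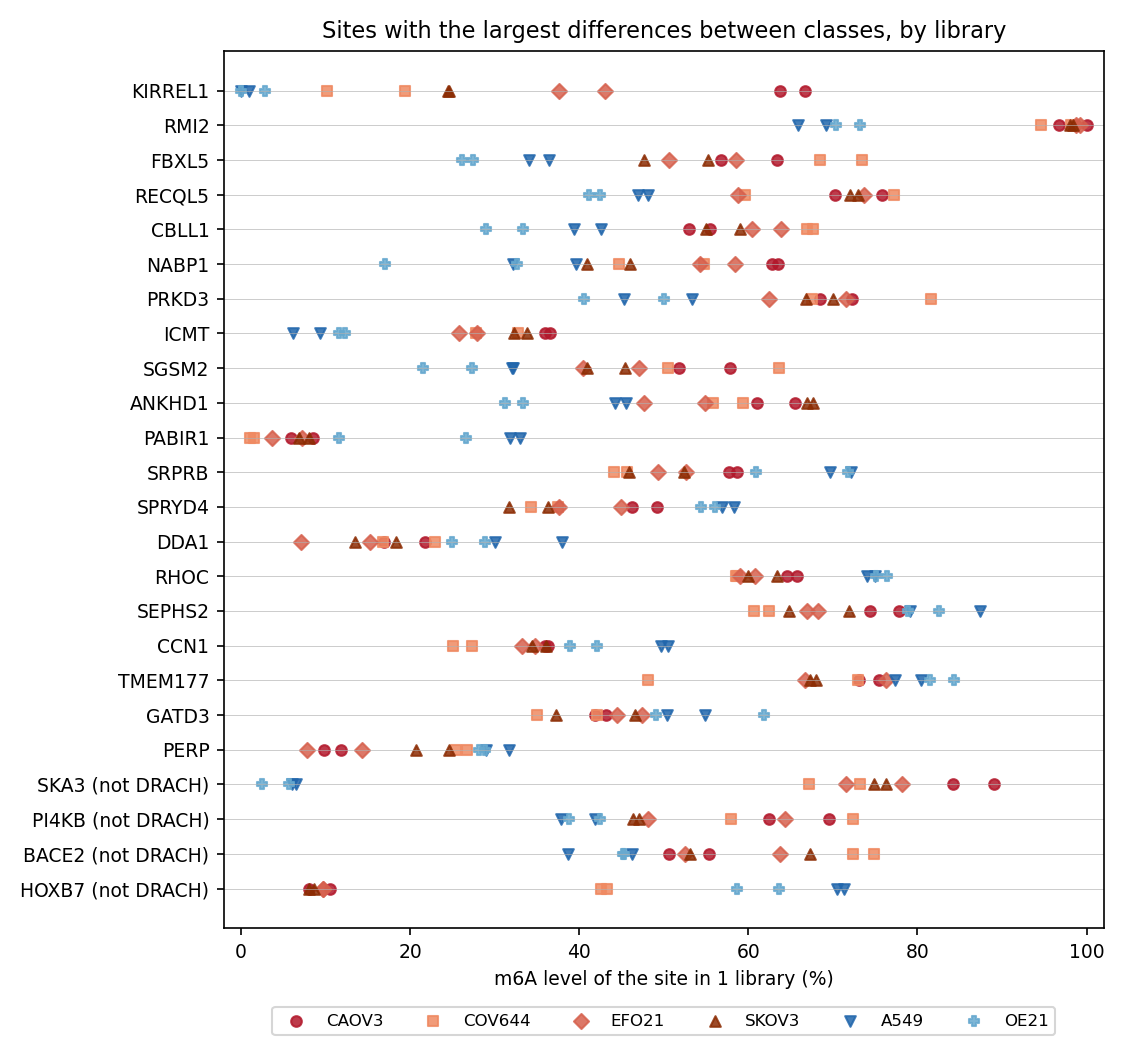
m6A level (x axis, percent) of the named sites in each of the 12 DMSO libraries, 1 row per site with its gene; red and orange symbols are ovarian lines, blue symbols A549 and OE21. RMI2 shows 8 ovarian libraries above 94% and 4 others below 74%, KIRREL1 a wide ovarian range, and HOXB7 COV644 between the other 3 ovarian lines and the blue symbols.

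FBXL5, the subunit of a ubiquitin ligase that senses iron and has iron regulatory protein IRP2 degraded, was higher over a stretch of sites. Of its 11 tested DRACH sites 8 were separated, 7 of them in every library, and all 11 differences were above 0. Of all tested DRACH sites 15.8% were separated as higher and 2.6% were so in every library. The lower quartile of all their differences was 0.22 points, so a difference above 0 is common. The 10 sites of internal exon 9, which is 726 nucleotides long, span 400 nucleotides. At position 15625316 of chromosome 4 (minus strand), the site with the largest difference, the 2 libraries gave 63.4% and 56.8% in CAOV3, 68.4% and 73.4% in COV644, 50.6% and 58.5% in EFO21 and 55.2% and 47.6% in SKOV3. A549 gave 36.4% and 34.1% there, and OE21 26.2% and 27.5%. This difference of 28.2 points (SE 6.70) missed the threshold (limma adjusted p = 0.093).

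The 4 FBXL5 sites that passed it were at 84.7% to 88.4% in the ovarian mean and at 64.0% to 71.3% in the other mean. At 15625354 the levels were 88.4% ± 2.22 and 65.2% ± 4.23 (SD), 23.2 points apart (SE 3.40, limma adjusted p = 2.67e-04). At 15625427 they were 21.7 points apart (adjusted p = 0.0032), at 15625531 18.3 points (adjusted p = 0.020) and at 15625514 15.6 points (adjusted p = 0.031). In 14 alternatives these calls held 8, 6, 2 and 1 times. Neighbouring sites share reads, so they are not independent measurements of the exon. Coverage in the ovarian over the other lines was 0.40 on the log2 scale at the site with the largest difference, between -0.41 and 0.32 at the 4 called sites and -0.08 over the gene.

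**Figure D4:**
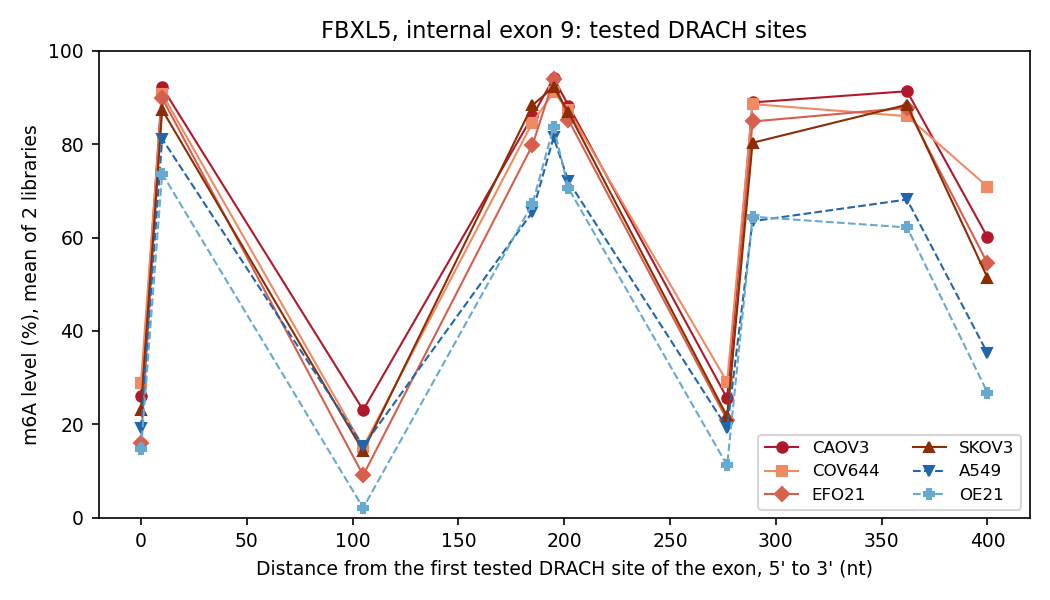
m6A level (y axis, percent, mean of 2 libraries) of the 10 tested DRACH sites of FBXL5 internal exon 9 against their distance in nucleotides from the first of them (x axis); solid lines are ovarian lines, dashed lines A549 and OE21. The classes differ by 6.57 points at the first site and by 28.2 points at the last.

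RECQL5, a DNA helicase, was separated as higher at all 6 of its tested DRACH sites, where 15.8% of all were. At position 75662551 of chromosome 17, in internal exon 4, the ovarian lines averaged 70.1% ± 3.27 and the others 44.6% ± 4.06 (SD), 25.4 points apart (SE 5.51, limma adjusted p = 0.047, held in 2 of 14 alternatives with a range of 0.030 to 0.974). CBLL1, the HAKAI subunit of the writer complex, differed by 24.1 points at position 107759247 of chromosome 7, with 52.9% to 67.6% over the ovarian libraries against 39.4% and 42.6% in A549 and 29.0% and 33.3% in OE21 (adjusted p = 0.18). A site with fewer reads, at 107759217, differed by 25.8 points (adjusted p = 0.14). The other higher sites of this selection were in NABP1, a protein that binds single-stranded DNA, PRKD3, a protein kinase, ICMT, which methylates prenylated proteins such as RAS, SGSM2, a regulator of RAB proteins, and ANKHD1, an ankyrin repeat protein. Their differences ran from 21.3 to 22.8 points and none passed limma's threshold as measured. ICMT did so in 3 of 14 alternatives, but its site was under 25% in every A549 and OE21 library. As it would be listed through ovarian lines only, those calls do not test the listing filter. All 24 tested DRACH sites of ICMT were above 0, where the lower quartile over all tested DRACH sites was 0.22 points.

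DRACH sites lower in the ovarian lines were fewer, and under the same read minimum their differences were smaller. PABIR1, an inhibitor of the phosphatase PP2A, had the largest difference of this selection, at position 68781322 of chromosome 9 in its single exon. The 8 ovarian libraries lay between 1.08% and 8.47%, A549 at 33.0% and 31.9%, and OE21 at 11.6% and 26.7%, so that the OE21 libraries were far apart. The difference was -20.4 points (SE 5.12, limma adjusted p = 0.12). Of the 7 tested DRACH sites of PABIR1, 2 were separated as lower and 1 as higher. SRPRB, the beta subunit of the receptor for the signal recognition particle, followed with -17.8 points, though 2 of its 3 tested sites were above 0. SPRYD4 was next with -16.7 points and both of its tested sites lower.

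RHOC, a small GTPase of cell movement, had 1 tested DRACH site and 471 to 1757 reads per library. Its ovarian libraries lay between 58.6% and 65.8% and the others between 74.0% and 76.4%, with means of 61.4% ± 2.85 and 75.1% ± 0.855 (SD). The classes did not overlap at this depth, but the difference of -13.8 points (SE 5.01) did not pass limma's threshold (adjusted p = 0.58). The remaining lower sites were in DDA1, SEPHS2, which makes selenophosphate, CCN1, a matrix protein, TMEM177, GATD3 and PERP, a desmosome protein induced by p53. Their differences lay between -11.8 and -13.9 points, with adjusted p of 0.39 or more. Other sites of these genes could go the other way. Of 5 tested DRACH sites each, CCN1 had 2 separated as higher and PERP 1. The lower PERP site was no longer separated after the correction for unconverted adenosine. GATD3 has a near-identical copy in the genome, so its reads may be shared.

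Outside DRACH the largest called difference was at a site in SKA3, a kinetochore protein that couples chromosomes to microtubules. At position 21154926 of chromosome 13, in last exon 9, the libraries gave 84.2% and 89.0% in CAOV3, 73.2% and 67.1% in COV644, 71.5% and 78.2% in EFO21 and 74.9% and 76.2% in SKOV3. A549 gave 6.02% and 6.52%, and OE21 2.54% and 5.66%, and their means of 6.27% and 4.10% lay below the background of these lines. The difference was 71.6 points (SE 6.39, limma adjusted p = 2.88e-10) and was called in all 14 alternatives. It was called in 16 of all 19, since the other 3 leave the site out. Among the alternatives that leave it out is the one that keeps only sites reaching the level of the listing filter in both classes. As the site would be listed through ovarian lines only, these calls do not test the listing filter. STM3675 left 9.11% ± 2.00 (SD, n = 2) in CAOV3.

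HOXB7, a homeobox transcription factor, went the other way at position 48607568 of chromosome 17, in last exon 2. A549 was at 71.3% and 70.5% and OE21 at 58.7% and 63.6%, while CAOV3, EFO21 and SKOV3 lay between 8.08% and 10.5% and COV644 at 43.2% and 42.6%. Within the ovarian lines, COV644 thus stood by itself. The difference was -48.5 points (SE 7.24, limma adjusted p = 3.47e-04, held in 8 of 14 alternatives with a range of 4.68e-14 to 0.92). The 2 DRACH sites of HOXB7 together gave 45.7% ± 4.05 and 47.3% ± 3.37 (SD), with overlapping lines. Among sites outside DRACH with 50 reads and every library separated, PI4KB and BACE2 followed SKA3 on the higher side with 18.3 and 17.4 points, neither called. With fewer reads, larger called differences outside DRACH were in GEMIN4 (63.2 points), TOM1L2 (46.4) and ARFGEF1 (21.95), named after their values were seen, of which ARFGEF1 was separated by line.

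LATS1, a kinase of the Hippo pathway, had too few reads for the naming rule. At position 149662081 of chromosome 6, in last exon 8, the 8 ovarian libraries lay between 2.44% and 25.5% and the 4 others between 75.9% and 91.7%. This difference of -74.8 points (SE 6.49, limma adjusted p = 2.22e-10) was the largest among the lower sites and rested on 24 reads in the shallowest library. It was called in all 14 alternatives, and in 17 of all 19, since the minimums of 50 and 100 reads leave it out. Only 7 bases away, at 149662088, the sign was reversed, with 40.0% to 59.3% in the ovarian libraries and 8.82% to 25.7% in the others (31.0 points, adjusted p = 0.045, called in 2 of 14). A further site 73 bases beyond that was also higher in all ovarian libraries, by 24.8 points. The remaining 10 tested DRACH sites of LATS1 differed by 0.058 to 9.53 points.

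Summed over the tested DRACH sites of each gene, no gene was called by limma, 0 higher (0%) and 0 lower (0%) of 7428, and the quasi-binomial model called 0 as well. At an unadjusted p under 0.05 there were 447 higher and 50 lower genes. Gene levels were separated at 1206 genes with the ovarian lines higher (16.2%) and 114 lower (1.53%). After quantile normalisation these counts were 589 and 623. Among genes with 3 or more sites, the largest separated differences were in RECQL5 (54.3% ± 1.55 against 37.3% ± 1.09, 16.9 points), PKD1 (15.1), GMPS, which makes GMP (14.98), RBMXL1 (14.9) and FBXL5 (14.7). PKD1 and RBMXL1 have near-identical copies in the genome and are uncertain. The largest lower ones were in FYCO1, an adaptor that moves autophagosomes (31.4% ± 5.21 against 50.5% ± 0.423, -19.1 points), the DNA ligase LIG3 (-9.22), C1QTNF6 (-8.74), HECTD3 (-8.73) and TMEM254 (-8.16).

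Separated sites were also counted by gene. Of 7428 genes, 5952 had 2 or more tested DRACH sites and 1478 had 2 or more separated ones. In 1292 of these all lay in the same direction and in 186 they lay in both, beside the 90.7% of separated sites that were higher. AHNAK, a giant membrane-associated protein, had the most higher sites by number, 16 of 136, a share of 11.8% that lies below the 15.8% of all DRACH sites. Its gene level was 33.5% in A549 against 49.1% in OE21, and the gene difference of 5.41 points turned to -2.41 without A549. ATMIN had 13 higher sites of 39 (33.3%). CCDC14 had 12 of 18 (66.7%), with 2 further sites lower. On the lower side C1QTNF6, SARAF and C11orf68 had 3 each, of 7, 7 and 8 sites, where 1.63% of all DRACH sites were lower. In each of these genes 1 lower site was separated in every library, and the gene levels of SARAF overlapped. The genes named here were picked by their counts.

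The m6A level of writer transcripts was higher in the ovarian mean for all 11 measured genes of the list, against 77.8% of all genes, yet none was called. The list holds the writer complex and the separate methyltransferases METTL4, METTL16 and PCIF1. Of the 11, 6 genes were separated as higher, CBLL1, METTL4, METTL14, VIRMA, WTAP and RBM15, and 0 as lower (54.5% and 0%, against 16.2% and 1.53% of all genes), with a median difference of 5.86 points against 2.75 points over all genes. CBLL1 was at 42.1% ± 4.06 (SD, n = 4) over 13 sites against 31.1% ± 0.727 (SD, n = 2), with every library separated and a difference of 10.97 points (SE 3.72, limma adjusted p = 0.73). METTL3, the catalytic subunit, had 2 sites and was at 47.6%, 49.1%, 49.2% and 42.6% in CAOV3, COV644, EFO21 and SKOV3, against 42.7% in A549 and 32.1% in OE21. SKOV3 and A549 thus lay side by side, and the METTL3 difference of 9.72 points moved to 4.45 without OE21. Read coverage of METTL3 was lower in the ovarian lines (log2 -0.83). METTL14, its partner, was at 59.0% ± 3.80 against 53.1% ± 0.219 (SD), with SKOV3 at 53.4% next to OE21 at 53.3%.

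All 11 writer differences were above 0 also after the correction for unconverted adenosine, with a median of 4.85 points, where 61.6% of all genes were above 0. Only 1 writer was then separated as higher (9.09%), near the 7.22% of all genes. After quantile normalisation all 11 were above 0 as well, against 51.5% of all genes, with medians of 3.06 and 0.13 points. Of the writers 4 were then separated as higher (36.4%), against 7.93% of all genes. With the second libraries alone 10 of 11 writer differences were above 0, against 75.5% of all genes. The members were chosen with earlier results of these data in view, so these counts are a description.

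**Figure D5:**
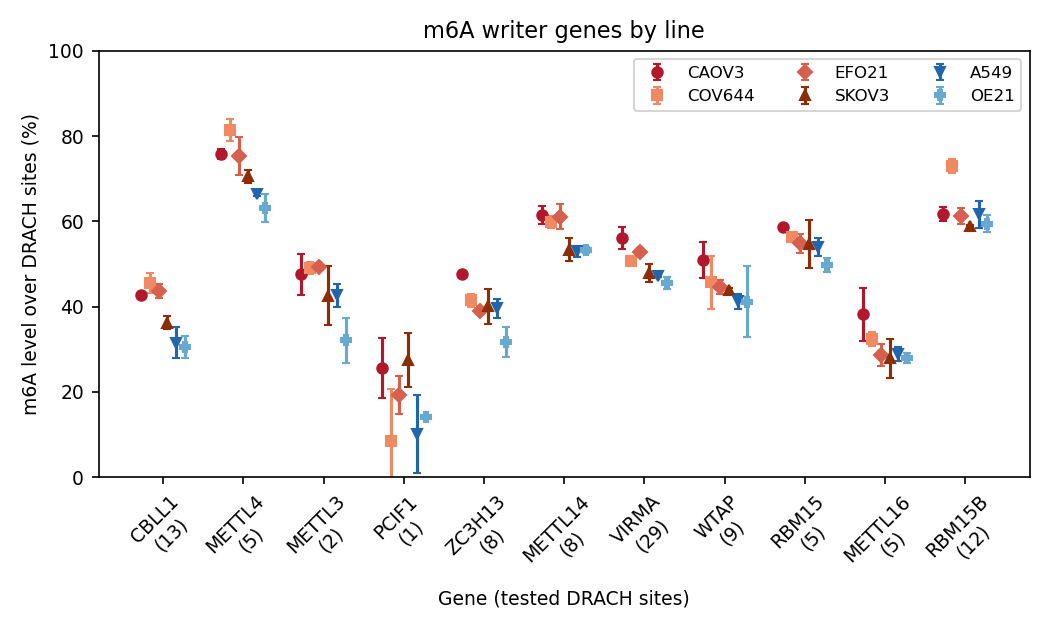
m6A level over all tested DRACH sites (y axis, percent, mean and SD of 2 libraries) of 11 writer genes (x axis, with their number of sites) in each line. CBLL1, METTL4, METTL14, VIRMA, WTAP and RBM15 have all 4 ovarian line means above A549 and OE21, CBLL1 and METTL4 also in every library. METTL3, PCIF1, ZC3H13, METTL16 and RBM15B overlap.

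Among erasers and readers, 3 of 12 measured genes (25.0%) were separated as higher and 0 as lower (median 4.11 points), beside 16.2% and 1.53% of all genes. After the correction for unconverted adenosine 1 of 12 was higher (8.33%), near the 7.22% of all genes. After quantile normalisation 3 of 12 were higher, against 7.93% of all genes, and 7 of 12 (58.3%) were above 0, against 51.5%. YTHDC1, the nuclear reader, reached 36.3% ± 2.75 against 28.5% ± 0.547 (SD), 7.72 points, and the eraser ALKBH5 42.6% ± 1.52 against 37.7% ± 0.121 (SD), 4.94 points. IGF2BP2 was at -1.08 points. FTO had no tested site. Of the other groups, HOX and homeobox genes had 3 of 10 higher, led by HOXA5 (14.4 points), laminins and integrins 3 of 19, led by LAMA5 (7.75), and genes of growth factor receptors and RAS signalling 5 of 31, led by PIK3CB, a subunit of PI3-kinase (11.5). The last pair of shares, 15.8% and 16.1%, lies close to the 16.2% of all genes. HOX and homeobox genes had 1 of 10 higher (10.0%) after the correction, and 1 of 10 after quantile normalisation. CD151, a tetraspanin partner of integrins, was at -9.51 points with overlapping lines.

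The next 6 groups had shares of higher genes between 12.5% and 15.6%, near or below the 16.2% of all genes. Cell cycle genes had 5 of 32 higher, with CDK1 at 10.7 points and CDC25B at -5.55. Factors of cleavage, polyadenylation and termination had 5 of 35 and splicing factors 4 of 32, where TRA2A (14.4) and INTS2 (10.1) led with overlapping lines. For double-stranded RNA sensing and editing it was 2 of 14, with STAU2 at 13.1 points. Interferon genes had 4 of 26 higher and 1 lower, which was ISG15, a ubiquitin-like modifier, at 33.3% ± 4.24 against 43.5% ± 4.44 (SD), -10.2 points. ISG15 has 1 tested DRACH site, its coverage in A549 was 4.94 RPM, its A549 libraries were at 56.9% and 36.4%, and the second of these overlapped the ovarian libraries. Epithelial genes had 1 of 7 higher, and CLDN4 was at 96.5% and 96.4% in the classes (0.15 points apart).

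Ribosomal and translation genes had a median of 1.53 points, with 0 higher and 1 lower of 21, and that median changed sign to -1.10 after the correction and -1.23 after quantile normalisation. The lower gene was EEF1A1, an elongation factor with many near-identical copies, at -7.30 points. No member was separated among 4 mesenchymal genes, 4 ovarian markers and 4 squamous markers, and no lung marker was measured. PAX8, the ovarian lineage factor, was at 13.1% ± 4.73 against 11.3% ± 6.79 (SD), and MYC at 74.6% ± 1.02 against 72.9% ± 1.02 (SD). MAT2A, which makes the methyl donor, differed by 5.90 points with overlapping lines. No list had a called gene, and WT1 and MUC16 had no tested DRACH site.

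Separated DRACH sites are described by exon, motif and level, of which only the level enters the rule. Last exons held 72.9% of higher and 67.8% of lower sites, against 69.0% of all tested DRACH sites, and internal exons 21.2% and 17.5%, against 21.4%. The motif GGACT, the most methylated one, made up 15.7% of higher and 23.0% of lower sites, against 17.7%. Motifs ending in T made up 64.2% and 73.7%, against 63.6%. Higher sites had a median level of 47.3% over the 6 lines and lower ones of 40.8%, against 35.4%. The last exons that held them had a median length of 2757 and 1430 nucleotides, against 2433. Internal exons with higher sites had a median length of 583 nucleotides, those with lower sites 598, and those with any tested site 423. Median differences were 8.23 points for higher and -7.18 for lower sites, beside 3.02 over all DRACH sites, and 84 higher and 9 lower sites differed by 20 points or more. Coverage was higher in the ovarian lines by a median log2 of 0.22 at higher sites, 0.046 at lower ones and 0.12 at all, and its part in the levels was not tested. With STM3675 in CAOV3 the median level was 9.18% at higher and 8.34% at lower sites, against 8.85% at all DRACH sites with a value.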

How the data were processed

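Reads with A or G at each site were deposited by the authors as counts, and their A share as a fraction, for 6 lines in 2 libraries each. The submitters' processing notes name cutadapt, STAR and the build GRCh38; a site caller is not given in the sources used here. Column names beginning with D were taken for DMSO and those with T for STM3675. Fractions times counts were whole within 1e-06. The labels do not say whether replicates are separate cultures, so their spread may be technical, and counting covers only part of the error since duplicates may remain.

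Levels of a line were the unweighted mean of its 2 libraries. limma 3.58.1 (R 4.3.3, eBayes with trend, Benjamini-Hochberg, 0.05) compared 4 with 2 lines over 68873 sites and over 7428 genes, whose reads were summed over tested DRACH sites. Mean levels were compared by exact permutation over the 15 ways to choose 2 of 6 lines. Libraries of a line differed by more than counting noise (chi-square per degree of freedom 2.18 to 8.20), so none were merged. Same-numbered libraries of different lines did not deviate together (correlations -0.023 to 0.022 over 15 pairs of lines).

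Named sites were the 10 largest differences each way among DRACH sites with 50 reads and all libraries separated, and 3 outside DRACH, of which 1 lower one existed. Named genes were the 5 largest each way with at least 3 sites, the extremes of each of 16 lists with 5 measured genes, 10 set genes and the 3 genes each way with the most separated sites. Members, lists and rules were chosen with earlier results of these data known. Alternatives were other read minimums, a quasi-binomial model, other scales, a correction for unconverted adenosine, pooled libraries, leaving out lines or replicates and a replicate block, and, chosen after seeing the data, quantile normalisation and full separation of libraries. Figures used Python 3.11.15 and matplotlib 3.10.9.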

Additional observations from a re-analysis of the deposited data

Results flagged for a closer look

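Among 73 values of named sites, genes and means, 9 had an ovarian line far from the other 3 by Dixon's test at its 95% limit, where chance gives about 1 in 20. COV644 stood apart at the HOXB7 site with 42.9%, against 8.37% to 9.71% in the other ovarian lines. It did so too in CDK1 (40.1% against 26.5% to 28.8%) and in the mean over sites outside DRACH (8.63% against 14.9% to 15.8%). EFO21 stood apart in PKD1 (81.9% against 62.1% to 64.6%) and slightly in MYC (73.1% against 75.03% to 75.31%). SKOV3 was low in LAMA5 (45.2% against 48.9% to 49.3%) and in C11orf68 (61.1% against 69.7% to 70.6%). CAOV3 was high in ALKBH5 (44.9% against 41.7% to 42.0%) and in INTS1 (24.7% against 12.5% to 14.3%), which has 1 tested DRACH site.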

How the results depend on the processing

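Called sites changed most. Higher and lower calls, 45 and 2 as measured, were 2 and 0 with 50 reads, 0 and 0 with 100 reads, 5 and 2 by the quasi-binomial model, 37 and 9 on the arcsine square root scale, 1 and 1 without the trend, 16 and 2 with pooled libraries, 3 and 2 after the correction for unconverted adenosine, 1 and 1 with DRACH sites only, 1 and 1 with sites at 25% in both classes and 2 and 2 after quantile normalisation. They ran from 2 to 108 and from 1 to 27 with a line or a replicate left out. The replicate block gave 7 and 2, and 0 called genes; it changed no call of a gene. Of the 47 calls 0 held in all 19 alternatives and 3 in at least 10. Genes called went from 0 to 1 with 50 reads (RECQL5) and ran from 0 to 1 with lines left out (ZNF607 without A549). With 50 reads the RECQL5 gene value, 25.4 points, was that of its site at 75662551 alone, so it adds nothing to that site. Separated DRACH sites, 6117 and 630 as measured, were 2792 and 258 with 50 reads, 1257 and 127 with 100 reads (fewer sites are tested), 3689 and 1126 after the correction, 2683 and 2974 after quantile normalisation and 1004 and 66 with every library separated. They ran from 5168 to 16789 and from 637 to 3480 with lines or replicates left out. The rule is easier to meet with a line left out, so those counts are not on the same footing as the 6117 and 630. The mean DRACH difference kept its sign, at 1.54 to 4.83 points. The AHNAK gene difference, 5.41 points, ran from -2.41 without A549 (reversed) to 13.2 without OE21. The cause of these changes was not tested. Depth limits the rest, as 18151 of 68873 sites have 50 reads in every library.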
